A study of Mus musculus with 12 samples.

Results

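The transcripts of 9 enzymes that make amino acids from glutamate, or that make and use glutamate itself, were examined in RNA-seq data of MEF cells, fibroblasts from mouse embryos. The members were chosen by name as the entries for Asns, Pycr1, Aldh18a1, Got1, Got2, Gpt2, Glul, Glud1 and Oat, out of 46765 entry names in the tables of the series. Earlier results of these data were known at that choice, so counts of members are given as a description. All 9 were listed in the table of the first experiment, and 8 in the table of the second, where Got2 was not analysed here. Every listed member passed the filter of a mean of at least 1 RPM, reads on a gene per 1000000 reads on all genes.

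The study asked how a cancer-associated mutant of isocitrate dehydrogenase 2 (IDH2), and 2-hydroxyglutarate (2-HG), the metabolite that this mutant makes from α-ketoglutarate, change gene expression. All cells came from C57BL/6 embryos at embryonic day 13.5 and had become immortal by serial passage. In the first experiment, 2MUT cells stably expressed human mutant IDH2 from a retroviral vector and were compared with Control cells carrying the mock vector, both without further treatment. In the second, MEF cells for which no vector is named received a form of 2-HG that enters cells, at 300 μM for 24 h (2-HG(+)), or served as controls (2-HG(-)), which the sample labels describe as receiving DMSO for 24 h and the text of the study as non-treated. Vector-bearing cells were selected with puromycin, and whether a line goes back to 1 clone is not given in the sources used here. Each group had 3 libraries.

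Glutamate stands at the centre of non-essential amino acid synthesis. Glutamine synthetase adds ammonia to it, glutamate dehydrogenase and the aminotransferases exchange it with α-ketoglutarate, and the pyrroline-5-carboxylate pathway turns it into proline. In many cell types the genes for several of these enzymes are known targets of ATF4, a transcription factor whose translation increases when amino acids are short or proteins misfold in the endoplasmic reticulum. ATF4 and its C/EBP partners are known to bind a composite sequence, the C/EBP-ATF response element.

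The promoter windows of the members were searched for the letters TGATGNAA on both strands (TTNCATCA when read on the other strand), the core of that element. RefSeq windows from 250 bases before to 50 bases after the transcription start, on GRCm38.p6, were found for 9 of 9 members. Asns, Pycr1 and Got1 each held 1 match, whereas Aldh18a1, Gpt2, Got2, Glul, Glud1 and Oat held none, and 3.97% of all 32851 windows of this length held the letters. A match is a description of the sequence only, and its absence says only that these letters are not in this window. The stretches with a match are shown because these 3 genes rose with 2-HG. They are written 5′ to 3′ on the strand of the gene, which is the minus strand for each, and capitals mark the match. They lie at chr6:7693207-7693236 for Asns, chr11:120643818-120643877 for Pycr1 and chr19:43524674-43524733 for Got1.
Asns: cacaTGATGAAActtcccgcacgcgttaca
Pycr1: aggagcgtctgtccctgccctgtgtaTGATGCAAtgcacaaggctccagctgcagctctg
Got1: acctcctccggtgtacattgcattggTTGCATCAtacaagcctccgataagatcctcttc
The match begins 23 bases before the RefSeq start in Asns and 103 bases before it in Pycr1. In Got1 it begins 102 bases before that start and reads in the opposite orientation. GENCODE places the start of Asns at 7693254, so the match there, 7693225 to 7693232, lies inside the gene as GENCODE annotates it.

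The libraries of the first experiment held between 6472439 and 7313602 reads on genes, and those of the second between 14959318 and 18363768, so that 3 reads, the least taken as present, were worth up to 0.464 RPM and up to 0.201 RPM, respectively. The entry for mouse Idh2 fell in 2MUT cells, from 77.3 ± 5.54 RPM (SD, n = 3) to 49.6 ± 6.39 RPM (adjusted p = 0.003), and since the introduced cDNA is human, this entry does not check its expression. The summed level of the fibroblast markers, collagens and Vim among them, was 11615 to 12682 RPM in Control and 7909 to 8516 RPM in 2MUT libraries, and 20204 to 21728 RPM in 2-HG(-) and 13736 to 14970 RPM in 2-HG(+) libraries. Of the 8 fibroblast markers tested, 7 fell in 2MUT cells, where 17.3% of all genes fell. With 2-HG 5 fell and 1, Thy1, rose, where 16.7% and 16.1% of all genes did so. The 6 epithelial markers were each under 1 RPM in all groups, and endothelial markers summed to at most 2.94 RPM. Of the leukocyte markers the highest was Cd68, at 12.4 RPM in 2-HG(-) cells. Cd68 fell to 8.46 RPM with 2-HG (adjusted p = 0.021) and did not pass in 2MUT cells (adjusted p = 0.19). Ptprc was at 0 in every 2MUT, 2-HG(-) and 2-HG(+) library. In bulk RNA, fewer cells of a type and less RNA per cell cannot be told apart, and the part of the lower fibroblast markers in the results that follow was not tested.

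With 2-HG, 5 of 8 members rose (Asns, Gpt2, Aldh18a1, Pycr1 and Got1), by 1.73-fold to 5.36-fold, 0 fell and 3 did not pass the threshold, where of all 10384 genes tested 16.1% rose and 16.7% fell, 32.8% in all. The 2-HG(+) libraries lay above all 2-HG(-) libraries for 5 members, as for 22.2% of all genes, and below them for 1, as for 24.1%. The number of members that fell was also 0 at an unadjusted limma p under 0.05, and with edgeR and DESeq2. In 2MUT cells, 1 of 9 members rose (Glul), 1 fell (Got1) and 7 did not pass, where of 11065 genes 16.5% rose and 17.3% fell, 33.8% in all. The median log2 change of the members was 0.95 with 2-HG, against -0.02 over all genes tested, and 0.09 in 2MUT cells, against 0.01. The change itself differed between the experiments for 6 of the 8 members tested in both. With its sign counted, it was lower in 2MUT cells for 5 and higher for 1. Of 9594 genes, 19.5% and 19.9% differed in those directions, 39.4% in all. Levels of different members are not compared here, because an AmpliSeq library reads 1 short amplified target per transcript and the positions of the targets were not used here. The labels do not say that the libraries of a group came from separate cultures, so p-values measure the spread between these libraries, which may be technical.

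**Figure D1:**
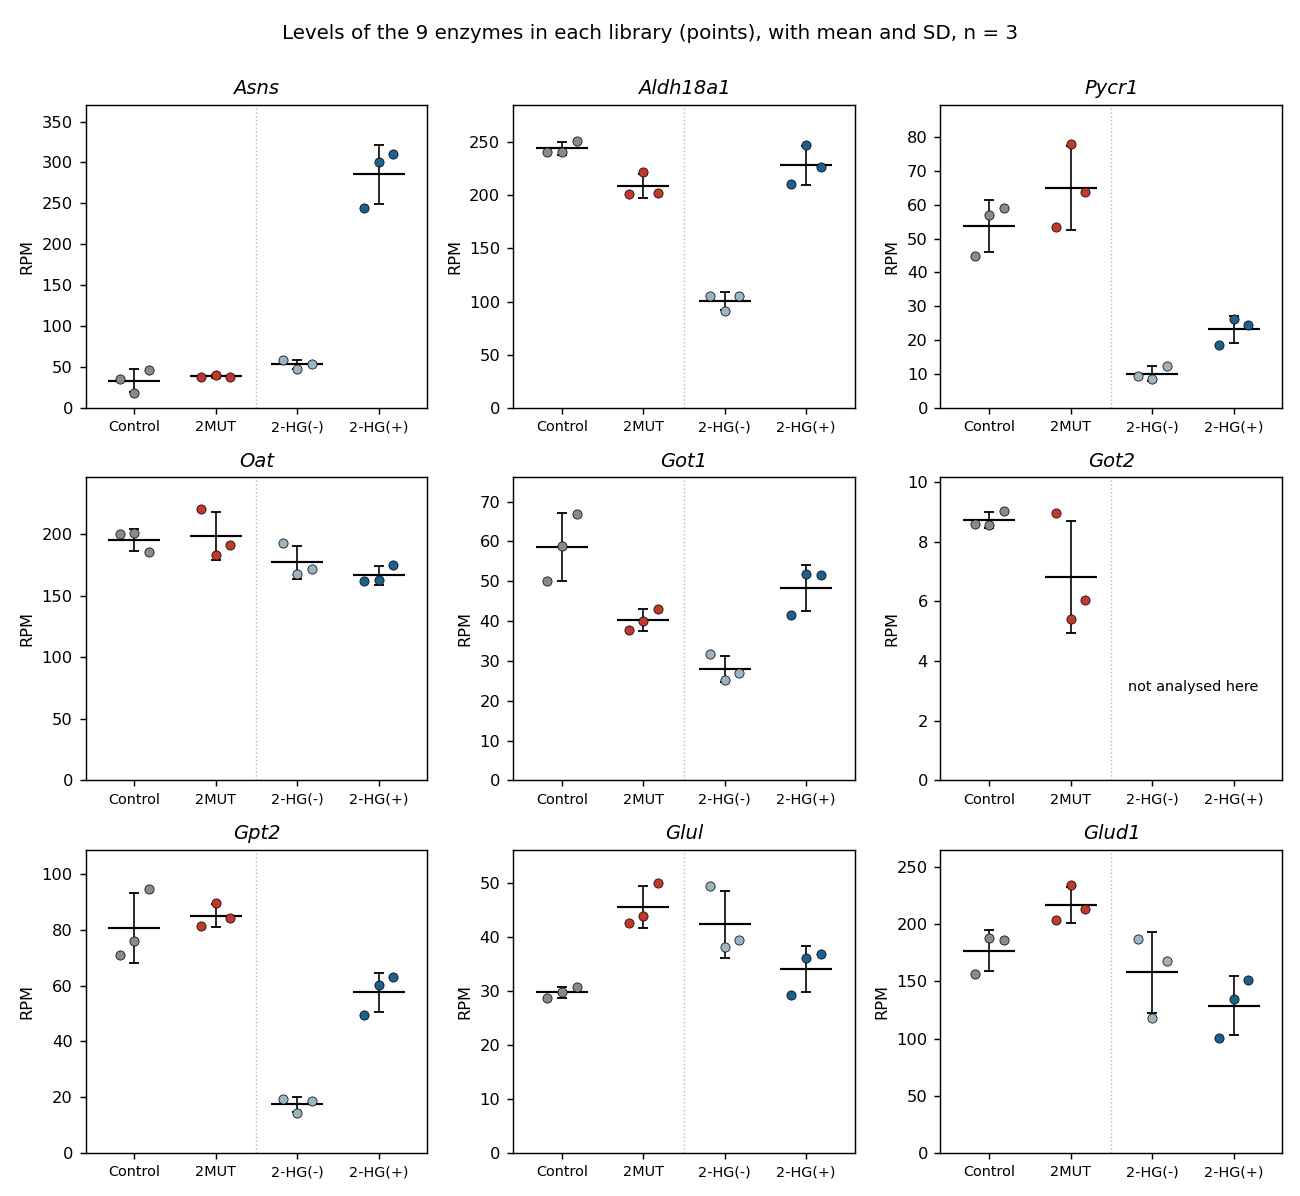
RPM of each enzyme in each library (points) by group, with the mean (line) and SD (bar) of 3 libraries, on an axis from 0. The dotted line parts the 2 experiments, whose tables were normalized separately. The 2-HG(+) libraries of Asns lie between 244 and 311 RPM and the 2-HG(-) libraries between 47.9 and 58.6 RPM, while for Glul the 2MUT libraries lie above the Control libraries.

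Asns, asparagine synthetase, which moves the amide nitrogen of glutamine onto aspartate and so yields asparagine and glutamate, is on chromosome 6 (GRCm38, 7675169 to 7693254, minus strand, 12 exons in its longest transcript). It had the largest change of the members. Its level was 58.6, 47.9 and 53.3 RPM in the 2-HG(-) libraries and 244, 301 and 311 RPM in the 2-HG(+) libraries. The 2-HG(+) libraries were all above the 2-HG(-) libraries. The mean rose from 53.3 ± 5.39 to 285 ± 36.1 RPM (SD, n = 3), 5.36-fold, or by 2.40 ± 0.12 (SE) on the log2(RPM + 1) scale (adjusted p = 1.9e-06), the 7th largest rise of the 10384 genes tested.

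In the first experiment, Asns was at 35.4, 17.9 and 46.4 RPM in Control libraries and at 37.7, 40.3 and 37.3 RPM in 2MUT libraries. The groups overlapped, and the Control libraries were spread more widely than the 2MUT libraries. The log2 difference of 0.30 ± 0.26 (SE) did not pass the test (adjusted p = 0.40, 95% interval -0.28 to 0.88). It rested on single libraries, being -0.07 without Control replicate 2 and 0.59 without Control replicate 3, when it passed (adjusted p = 0.042). The change in 2MUT cells minus that with 2-HG was -2.09 ± 0.34 (adjusted p = 0.00028).

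The proline branch begins with Aldh18a1, pyrroline-5-carboxylate synthase, a mitochondrial enzyme that reduces glutamate to the semialdehyde from which pyrroline-5-carboxylate forms. The gene is on chromosome 19 (40550257 to 40588463, minus strand, 19 exons) and overlaps Gm15801 on the same strand. It was at 105, 91.3 and 106 RPM in 2-HG(-) libraries and at 211, 247 and 227 RPM in 2-HG(+) libraries, which did not overlap. The rise was 2.27-fold, 1.17 ± 0.10 on the log2 scale (adjusted p = 4.1e-05). In Control libraries Aldh18a1 stood at 241, 241 and 251 RPM, and in 2MUT libraries at 201, 222 and 202 RPM. Here all 2MUT libraries lay below all Control libraries, as they did for 24.0% of all genes, and the log2 difference of -0.23 ± 0.09 did not pass the threshold (adjusted p = 0.07). The test without moderation of the variance gave an adjusted p of 0.048. The changes in the 2 experiments differed by -1.40 ± 0.13 (adjusted p = 2.6e-06).

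Pycr1, a mitochondrial pyrroline-5-carboxylate reductase that completes proline, is on chromosome 11 (120635712 to 120643769, minus strand, 8 exons). It was at 9.37, 8.42 and 12.5 RPM in 2-HG(-) libraries and at 18.6, 26.3 and 24.6 RPM in 2-HG(+) libraries. The groups did not overlap, and the mean rose 2.30-fold, from 10.1 ± 2.13 to 23.2 ± 4.01 RPM (log2 change 1.13 ± 0.18, adjusted p = 0.0012). In the first experiment it was at 45.0, 57.1 and 59.1 RPM in Control libraries and at 53.3, 77.9 and 63.7 RPM in 2MUT libraries, with overlap. That log2 difference, 0.26 ± 0.16, did not pass (adjusted p = 0.22, 95% interval -0.08 to 0.61), and the change minus that with 2-HG was -0.86 ± 0.26 (adjusted p = 0.017).

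Oat, ornithine aminotransferase, links ornithine to the same semialdehyde and thus to glutamate and proline. The gene lies on chromosome 7 (132557478 to 132576398, minus strand, 10 exons) and overlaps Fgfr2 on the same strand. It was at 192, 168 and 171 RPM in 2-HG(-) libraries and at 162, 162 and 175 RPM in 2-HG(+) libraries. In Control libraries it was at 200.2, 201 and 185 RPM, and in 2MUT libraries at 221, 183 and 191 RPM. The groups overlapped in both experiments. The log2 difference was -0.09 ± 0.10 with 2-HG (adjusted p = 0.51, 95% interval -0.30 to 0.13) and 0.02 ± 0.10 in 2MUT cells (adjusted p = 0.92, 95% interval -0.20 to 0.24), and neither passed the test. The difference between the changes was 0.10 ± 0.14 (adjusted p = 0.57). Of the 3 genes described for this branch, Aldh18a1 and Pycr1 rose with 2-HG and Oat did not pass, where 16.1% of all genes rose. Other genes of the branch are not reported here.

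**Figure D2:**
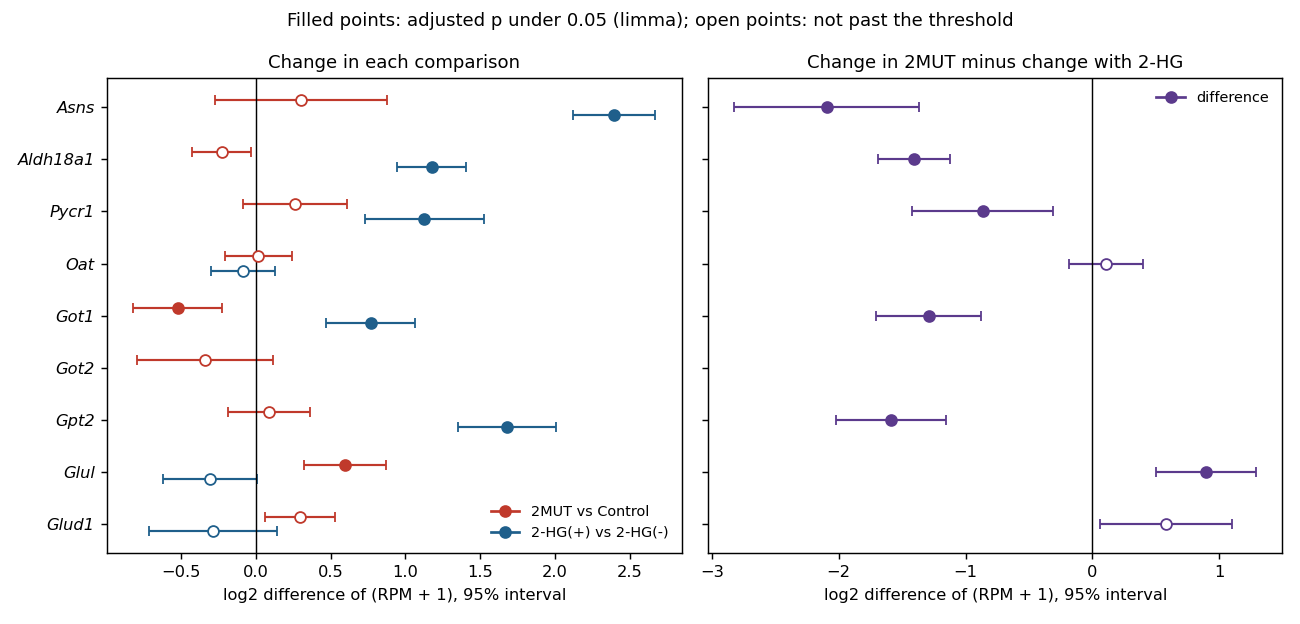
Change of each enzyme on the log2(RPM + 1) scale with its 95% interval, in each experiment (left, 2MUT minus Control in red and 2-HG(+) minus 2-HG(-) in blue) and as the difference between the 2 changes (right). Filled points passed the adjusted p threshold of 0.05, and the point of Asns with 2-HG, at 2.40, lies farthest to the right.

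Of the aminotransferases, Gpt2 encodes the mitochondrial alanine aminotransferase, which forms alanine and α-ketoglutarate from pyruvate and glutamate (chromosome 8, 85492576 to 85527560, plus strand, 12 exons). It was at 19.3, 14.2 and 18.6 RPM in 2-HG(-) libraries and at 49.6, 60.2 and 63.1 RPM in 2-HG(+) libraries, again without overlap. Gpt2 rose 3.32-fold, from 17.4 ± 2.74 to 57.6 ± 7.11 RPM (log2 change 1.68 ± 0.15, adjusted p = 4e-05), and was the 32nd largest rise of all genes tested. Its Control libraries had 71.2, 75.9 and 94.9 RPM, and its 2MUT libraries 81.4, 89.6 and 84.5 RPM, within the spread of the controls. The log2 difference was 0.09 ± 0.13 (adjusted p = 0.62, 95% interval -0.19 to 0.36), and this change minus that with 2-HG was -1.59 ± 0.20 (adjusted p = 3.8e-05).

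Got1, the cytosolic aspartate aminotransferase (chromosome 19, 43499752 to 43524605, minus strand, 9 exons), was the only member that passed the test in both experiments, and it did so in opposite directions. It was at 31.6, 25.2 and 27.0 RPM in 2-HG(-) libraries and at 41.6, 51.9 and 51.5 RPM in 2-HG(+) libraries, a rise of 1.73-fold (log2 change 0.77 ± 0.13, adjusted p = 0.002). In Control libraries it was at 50.012, 59.0 and 66.9 RPM, and in 2MUT libraries at 37.7, 40.1 and 43.1 RPM. No library of a treated or mutant group fell within the range of its controls. The mean fell from 58.6 ± 8.43 to 40.3 ± 2.69 RPM in 2MUT cells (log2 change -0.52 ± 0.13, adjusted p = 0.012), a call that the test without moderation did not give (adjusted p = 0.066). The changes differed by -1.29 ± 0.19 (adjusted p = 0.00014).

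Got2, the mitochondrial aspartate aminotransferase and the partner of Got1 in the malate-aspartate shuttle (chromosome 8, 95864134 to 95888547, minus strand, 10 exons), was measured in the first experiment only. It was at 8.58, 8.55 and 9.02 RPM in Control libraries and at 8.96, 5.42 and 6.05 RPM in 2MUT libraries, which rested on 37 to 66 reads each. The first 2MUT library lay within the Control range and the other two below it, and the log2 difference of -0.34 ± 0.21 did not pass (adjusted p = 0.23, 95% interval -0.80 to 0.11). Gm45760 overlaps Got2 on the opposite strand and a pseudogene, Got2-ps1, is annotated, so its low count is uncertain as a measure of Got2 alone.

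Glul, glutamine synthetase (chromosome 1, 153899944 to 153909723, plus strand, 7 exons), was at 28.7, 29.8 and 30.8 RPM in Control libraries and at 42.6, 43.9 and 49.9 RPM in 2MUT libraries. All mutant libraries were above the narrow range of the controls. Glul rose 1.53-fold, from 29.7 ± 1.03 to 45.5 ± 3.90 RPM (log2 change 0.59 ± 0.13, adjusted p = 0.0039), and was the 1 member that rose in 2MUT cells. In the second experiment it was at 49.4, 38.2 and 39.4 RPM in 2-HG(-) libraries and at 29.2, 36.0 and 36.9 RPM in 2-HG(+) libraries. These groups did not overlap either, with the treated libraries below, as for 24.1% of all genes, but the log2 difference of -0.30 ± 0.14 did not pass the threshold (adjusted p = 0.12, 95% interval -0.62 to 0.01). The signed change was higher in 2MUT cells by 0.90 ± 0.18 (adjusted p = 0.0016). Teddm2 overlaps Glul on the opposite strand, and whether counting used strand is not given in the sources used here.

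Glud1, glutamate dehydrogenase, which releases ammonia from glutamate in mitochondria (chromosome 14, 34310727 to 34345265, plus strand, 13 exons), was at 157, 188 and 186 RPM in Control libraries and at 203, 234 and 214 RPM in 2MUT libraries. The 2MUT libraries were above all Control libraries, as they were for 23.5% of all genes, and the log2 difference of 0.30 ± 0.11 came close to the threshold without passing it (adjusted p = 0.051, 95% interval 0.06 to 0.53). It passed the threshold under 7 of 16 alternatives. With 2-HG, Glud1 varied widely, from 187, 118 and 168 RPM in 2-HG(-) libraries to 100.4, 135 and 152 RPM in 2-HG(+) libraries, with overlap and a log2 difference of -0.28 ± 0.19 (adjusted p = 0.29). The difference between the changes, 0.58 ± 0.24, did not pass (adjusted p = 0.072).

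**Figure D3:**
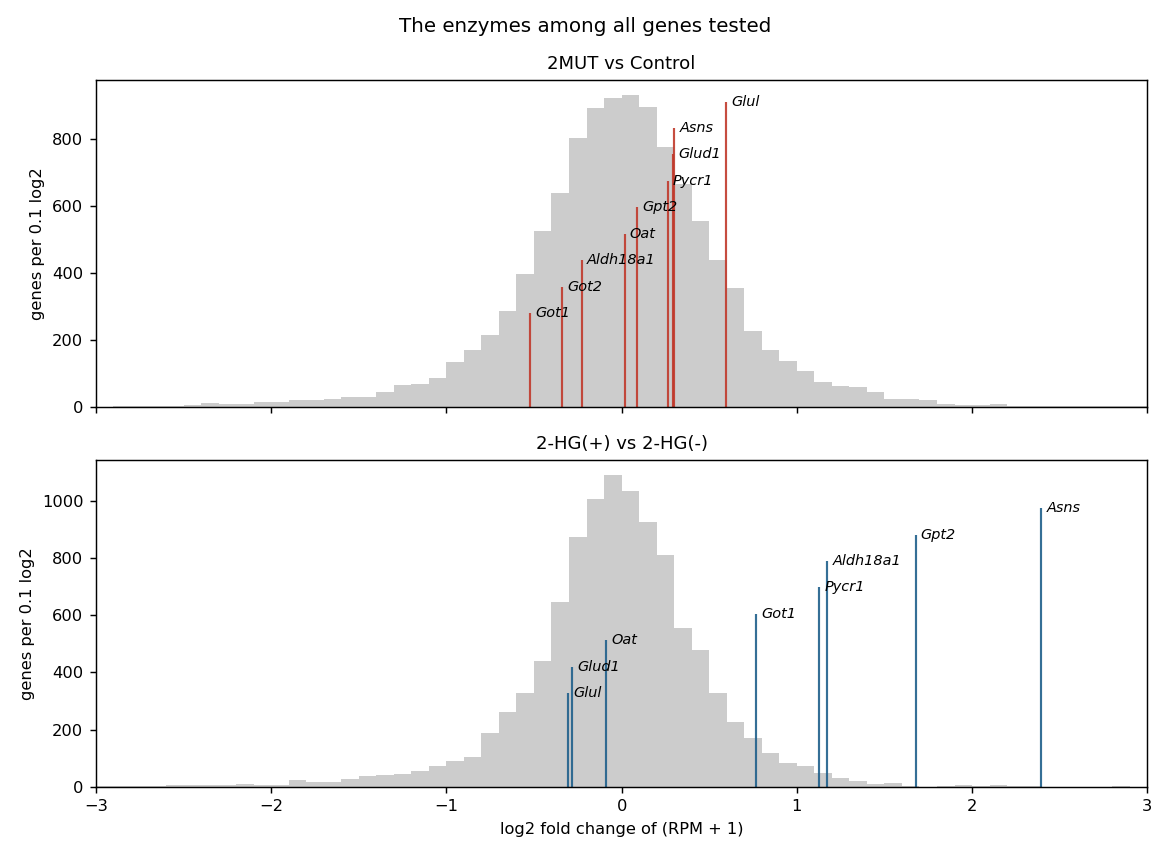
Number of genes per 0.1 log2 unit (grey) by change on the log2(RPM + 1) scale in 2MUT cells (top) and with 2-HG (bottom), with the enzymes as coloured lines whose height only separates the names. In the lower panel Asns at 2.40, Gpt2 at 1.68, Aldh18a1 at 1.17 and Pycr1 at 1.13 lie in the right tail, and in the upper panel the members lie between -0.52 (Got1) and 0.59 (Glul).

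Across the 12 libraries, after the mean of each table was subtracted from log2(RPM + 1), Pearson's r between the 5 members that rose with 2-HG ran from 0.66 (Got1 and Pycr1) to 0.96. It was 0.96 between Asns and Gpt2, 0.96 between Aldh18a1 and Gpt2, 0.93 between Gpt2 and Pycr1, and 0.70 between Asns and Got1, whereas it was 0.78 between Glul and Glud1 and -0.24 between Asns and Glul. These values include the differences between the groups, so that genes which rose in the same group correlate by construction, and libraries of a group share their culture conditions, so they are given as a description. Among 9594 genes, those most like Asns were Rars, the arginyl-tRNA synthetase, with r = 0.98, Naa50, an N-terminal acetyltransferase, with r = 0.98, and Hspbap1, with r = 0.98. Rars had a log2 change of 0.90 with 2-HG and -0.01 in 2MUT cells. Those most like Glul were Efna4, an ephrin ligand, with r = 0.97, Txnl4b, with r = 0.97, and Gdf11, a ligand of the TGF-β family, with r = 0.96.

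Other enzymes and carriers of the same pathways were examined in 4 lists of 42 genes. With 2-HG, 10 of the 26 genes tested rose and 2 fell, with a median log2 change of 0.17, where 16.1% and 16.7% of all genes did so. In 2MUT cells 1 of 26 rose and 8 fell, with a median of -0.21, where 16.5% and 17.3% of all genes did so. In the direct test of the difference, the signed change was lower in 2MUT cells for 11 of 23 genes and higher for 1. Over all genes the shares were 19.5% and 19.9%. The counts within each list that follow are small and are to be read against the same shares. The counts of 0 given for these lists and for ATF4 and its partners are from limma and were also 0 at an unadjusted p under 0.05.

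Among the other aminotransferases that use glutamate, 2 of 5 rose with 2-HG and 0 fell. Bcat1, the cytosolic branched-chain aminotransferase, rose from 119 ± 17.3 to 431 ± 19.6 RPM (log2 change 1.85, adjusted p = 5.7e-06), and Psat1, phosphoserine aminotransferase of the serine pathway, from 258 ± 16.8 to 685 ± 45.1 RPM (1.40, adjusted p = 9.7e-06). In 2MUT cells 0 of 6 rose and 1 fell, Ccbl2, a kynurenine aminotransferase (log2 change -0.92, adjusted p = 0.0018), which is listed under its newer symbol Kyat3 in the second experiment and had a log2 difference of -0.01 there (adjusted p = 0.96). The change in 2MUT cells minus that with 2-HG was -2.06 for Bcat1 and -1.23 for Psat1 (adjusted p = 6.4e-07 and 2.1e-05).

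The glutamine amidotransferases, which take nitrogen from glutamine mainly for nucleotide synthesis, included Cad, Ppat and Pfas, which passed the test in opposite directions in the experiments. With 2-HG, 5 of 8 rose, namely Cad (log2 change 0.61), Pfas (0.58), Ppat (0.55), Gmps (0.46) and Ctps (0.41), and 1, Ctps2, fell (-0.43). In 2MUT cells 0 of 8 rose and 3 fell, which were Ppat (-0.70), Cad (-0.65) and Pfas (-0.41), enzymes of purine and pyrimidine synthesis. In the direct test, the signed change was lower in 2MUT cells for Ppat, Cad, Pfas, Ctps and Nadsyn1 and higher for Ctps2. Of the aspartate, asparagine and arginine enzymes, Odc1, ornithine decarboxylase of polyamine synthesis, rose in both experiments (log2 change 1.54 with 2-HG, adjusted p = 9.1e-06, and 0.36 in 2MUT cells, adjusted p = 0.032). Asrgl1, an asparaginase-like enzyme, rose with 2-HG (0.42, adjusted p = 0.049) and fell in 2MUT cells (-0.95, adjusted p = 0.00074), and Asl, argininosuccinate lyase, fell in 2MUT cells (-0.55, adjusted p = 0.013). This list thus had 2 of 7 higher and 0 lower with 2-HG, against 16.1% and 16.7% of all genes, and 1 of 6 higher and 2 lower in 2MUT cells, against 16.5% and 17.3%, counts too small to set the list apart from these shares.

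The malate-aspartate shuttle and the mitochondrial glutamate carriers, in which Got1 and Got2 take part, had 0 of 6 genes higher and 2 lower in 2MUT cells, where 16.5% and 17.3% of all genes were so, and 1 higher and 1 lower with 2-HG, near the shares over all genes (16.1% and 16.7%). Both aspartate-glutamate carriers, Slc25a12 (log2 change -0.62, adjusted p = 0.0084) and Slc25a13 (-0.58, adjusted p = 0.018), fell in 2MUT cells. With 2-HG, Slc25a13 rose (0.40, adjusted p = 0.019) and Slc25a12 fell (-0.46, adjusted p = 0.02). The malate dehydrogenases Mdh1 and Mdh2 did not pass in either experiment.

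Of ATF4 and its partners, 5 of 6 rose with 2-HG and 0 fell. Atf4 rose from 430 ± 92.0 to 1219 ± 30.6 RPM (log2 change 1.52, adjusted p = 5.6e-05), Trib3, an ATF4-induced pseudokinase, by 2.80, Atf3 by 2.36, Ddit3, also called CHOP, by 1.99 and Cebpg by 0.79, while Cebpb had a difference of 0.01 (adjusted p = 0.96). In 2MUT cells, Atf3 (1.40) and Cebpb (0.48) rose, Ddit3 fell (-1.26, adjusted p = 0.00055) and Atf4 had a difference of 0.25 (adjusted p = 0.052). Of the listed genes that are no members and had a promoter window, only Atf3 and Trib3 held the letters searched for. In Trib3 the match begins 14 bases after the start. The windows of Atf4, Ddit3, Cebpb and Cebpg held none, and 3.97% of all windows held the letters. A match describes the sequence only. Protein or activity of ATF4 was not measured in these libraries.

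**Figure D4:**
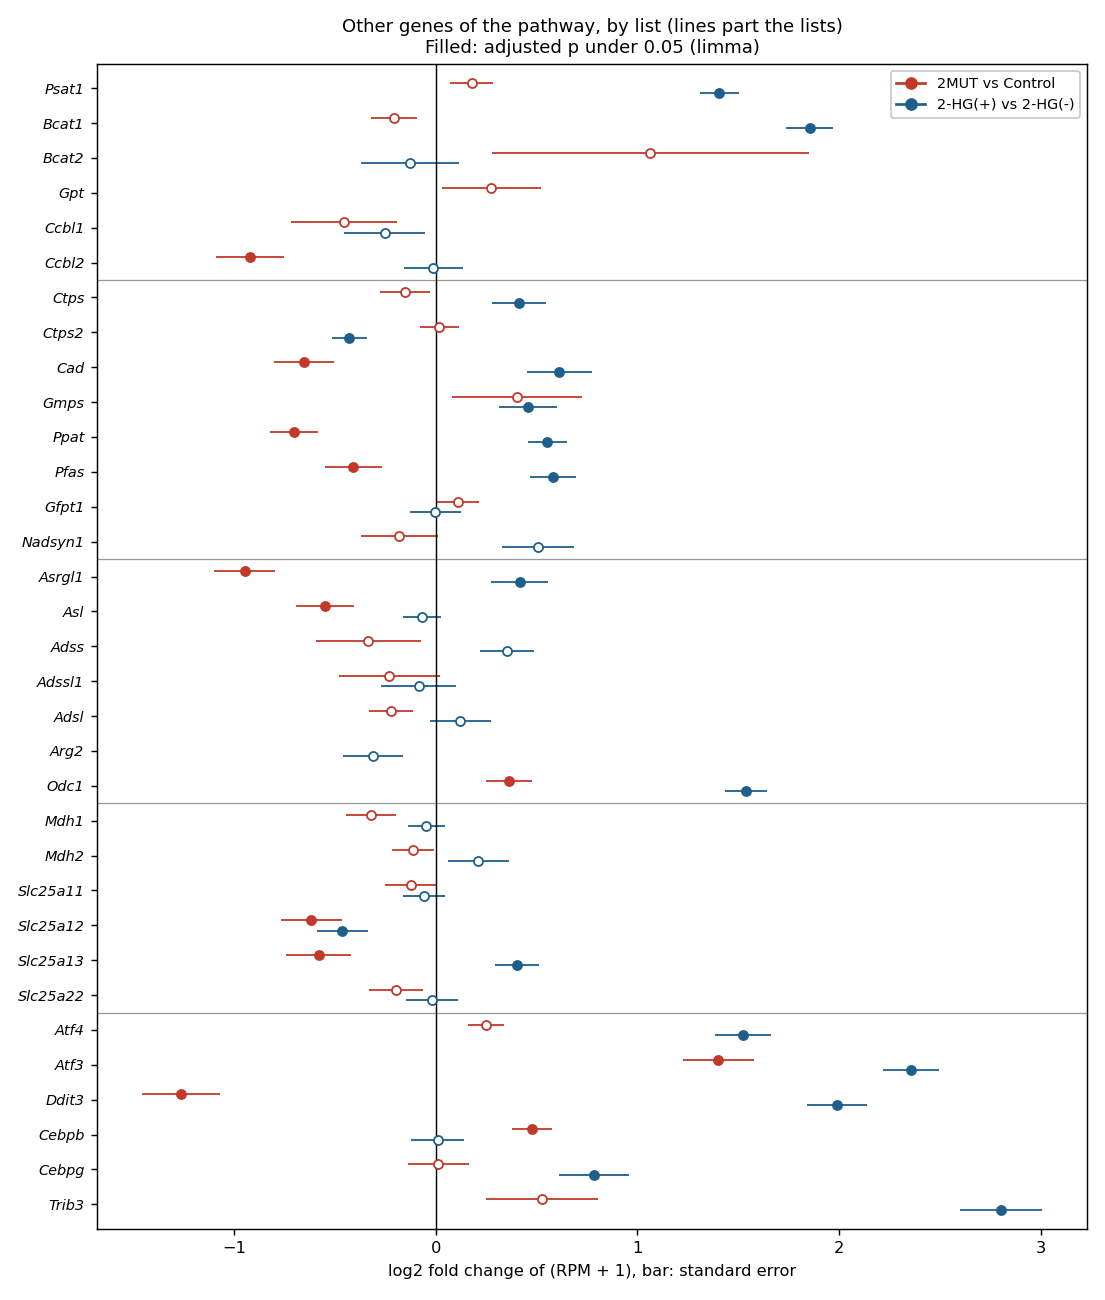
Log2 change of (RPM + 1), with its standard error, of the other listed genes in 2MUT against Control cells (red) and in 2-HG(+) against 2-HG(-) cells (blue), in the order aminotransferases, amidotransferases, aspartate to arginine, shuttle and carriers, and ATF4 with its partners. Filled points passed the adjusted p threshold of 0.05. Genes far to the right with 2-HG include Trib3 (2.80), Bcat1 (1.85), Odc1 (1.54) and Psat1 (1.40), and Ddit3 lies on opposite sides of 0 in the experiments (1.99 and -1.26).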

How the data were processed

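RNA-seq was carried out on 12 libraries made with the Ion AmpliSeq mouse transcriptome kit. Per the labels and the methods of the study, the authors mapped the reads with TMAP, used the AmpliSeqRNA plug-in to count them and deposited the values as RPM, with 1 table per experiment. The tables list different entries (43280 and 23930) and were scaled separately, so tests were made within a table. Reads were recovered from RPM, and 100.0% of values were whole within 0.05 reads. Counting error only is covered by the limit of 3 reads.

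The test was limma 3.58.1 in R 4.3.3 with a mean-variance trend on log2(RPM + 1), two-sided, for genes whose mean reached 1 RPM, with Benjamini-Hochberg adjustment over all genes and a threshold of 0.05. The added 1 RPM understates changes of low genes. The difference between the experiments was the contrast of the changes over all 12 libraries, for 9594 genes. Every member was named, and other listed genes were named where they passed the threshold or were set beside such a gene. For Asns and Glul, the members of largest change with 2-HG and in 2MUT cells, respectively, the 3 genes of highest Pearson r were named. The members and lists were chosen with earlier results of these data known. Some of the listed genes are not reported here. Gene positions come from GENCODE M21 on GRCm38 and promoter sequences from RefSeq. Alternatives were an added 0.1 RPM, no filter, a filter at 10 RPM, no trend, no moderation, median-of-ratios scaling, quantile normalization, edgeR 4.0.16 and DESeq2 1.42.0 on recovered reads, a block for replicate number, and leaving out single libraries. The tests were checked on simulated data. Tables were handled with pandas 2.3.3.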

Additional observations from a re-analysis of the deposited data

Results flagged for a closer look

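For 6 enzymes the change in 2MUT against Control cells differed from that with 2-HG in the direct test of the difference. On the log2 scale the change in 2MUT cells minus the change with 2-HG was -2.09 for Asns, -1.59 for Gpt2, -1.40 for Aldh18a1, -1.29 for Got1 and -0.86 for Pycr1. For Glul it was 0.90, in the other direction. The experiments also differ in the cells' vector, the depth of the libraries and the entries of the tables, whose part in these differences cannot be told apart.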

How the results depend on the processing

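With 2-HG, the 5 rises kept their direction and their side of the threshold in all 80 values under the 16 alternatives, and so did the 6 members whose change differed between the experiments in all 132 values under 22 alternatives. In 2MUT cells, Glul kept its call under all 16, and Got1 lost it without moderation only. The number of members higher in 2MUT cells went from 1 to 2 with the filter at 10 RPM (where Got2 has no value), median-of-ratios scaling, quantile normalization and DESeq2, Glud1 being added, and ranged from 1 to 3 when single libraries were left out. It was 2 without Control replicate 2 and 3 without Control replicate 3, when Asns was added too. The number with a higher signed change in 2MUT cells went from 1 to 2 with quantile normalization, edgeR and DESeq2. It ranged from 1 to 2 with single libraries left out, being 2 without 2-HG(-) replicate 2 or 2-HG(+) replicate 3. Signs turned in 2MUT cells for Asns, at -0.075 without Control replicate 2 (up to 0.59 with other libraries left out), and for Oat, at -0.021 without Control replicate 3 and -0.061 without 2MUT replicate 1 (up to 0.072). Over all genes, the unmoderated test gave 1021 higher and 1223 lower in 2MUT cells, against 1826 and 1915, and 1098 higher and 1139 lower with 2-HG, against 1668 and 1737. Leaving out single libraries gave 1271 to 1926 and 1484 to 1880 in 2MUT cells and 1146 to 1745 and 1176 to 1580 with 2-HG. The causes were not tested.

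The main test used no pairing between groups, and only a replicate number links their libraries here. Deviations of same-numbered libraries correlated at 0.07, 0.03 and 0.03 in the first experiment and at -0.46, -0.16 and 0.06 in the second. For differently numbered libraries the values ran from -0.14 to 0.09 in the first experiment and from -0.41 to 0.48 in the second. These values cannot settle whether libraries were paired. With the replicate number as a block, 2 members were higher in 2MUT cells, Glud1 being added, and no other member's call changed. Depth limits Got2 most, with 37 to 66 reads.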

Other observations

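Levels of members in the control cells of the 2 experiments are set side by side without a test, because the tables were scaled separately and list different entries. Their order is therefore not read as a difference between the cells. Pycr1 was at 53.7 ± 7.63 RPM (SD, n = 3) in Control and 10.1 ± 2.13 RPM in 2-HG(-) cells, Gpt2 at 80.7 ± 12.6 and 17.4 ± 2.74 RPM, and Aldh18a1 at 244 ± 5.94 and 101 ± 8.03 RPM. Oat was at 195 ± 8.86 and 177 ± 13.5 RPM, Got1 at 58.6 ± 8.43 and 27.95 ± 3.32 RPM, and Glud1 at 177 ± 17.6 and 158 ± 35.8 RPM. The order was the other way for Asns, at 33.2 ± 14.3 and 53.3 ± 5.39 RPM, and for Glul, at 29.7 ± 1.03 and 42.4 ± 6.17 RPM.

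Among the other aminotransferases, Bcat2, the mitochondrial branched-chain enzyme, was uneven within groups. It was at 24.0, 20.7 and 2.05 RPM in Control libraries and at 45.7, 6.59 and 41.6 RPM in 2MUT libraries, so that 1 library in each group stood far below the others, and the log2 difference of 1.06 ± 0.79 (SE) did not pass the limma test (adjusted p = 0.32).

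The mouse entry of Idh1, the cytosolic relative of IDH2, was higher in 2MUT than in Control cells (log2 change 0.64, adjusted p = 0.0048) and lower with 2-HG (-0.33, adjusted p = 0.039), while that of Idh2 moved the other way in both (-0.63, adjusted p = 0.003, and 0.43, adjusted p = 0.011). These 2 genes were named after their values were seen.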
